A study of Mus musculus with 6 samples.

Results

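A set of 10 genes that mark epithelia, the surface ectoderm among them, was followed in somite-level tissue of Dll3 mutant and wild-type mouse embryos. They were the adhesion genes Cdh1, Epcam and Perp, the claudins Cldn6 and Cldn7, the keratins Krt8, Krt18 and Krt19, and the transcription factor genes Trp63 and Tfap2c. A probe set, the unit that an Affymetrix array uses to measure a transcript, was taken when the platform annotation gave it exactly 1 symbol and that symbol was among these genes. All 10 genes were on the array, through 16 of the 22626 probe sets tested and among 12393 genes in all.

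The embryos were collected at 9.5 days post coitum and carried either the Dll3 tm1Rbe allele (also written Dll3neo) on both chromosomes, in 3 mutant pools, or unaltered Dll3, in 3 wild-type pools. Both genotypes are labelled c57bl/6. Dissection kept the trunk from otic placode level back to the newest somite, without heart or endoderm, and each pool went to 1 MOE430A array. The pools are described as biological replicates, but how many embryos went into each is not stated in the labels. Deposited values were linear ratios, each set against a reference that for all 16 member probe sets was the probe set's own median over the 6 pools (within 0.0015). Such a ratio keeps no signal level, so the levels of different genes cannot be compared, and whether an epithelial or somite marker was well above background could not be read.

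The surface ectoderm is the single-layered epithelium that covers the embryo and later becomes epidermis. Its cells hold together through E-cadherin (Cdh1), EpCAM and claudins, carry filaments of the simple keratins Krt8 and Krt18, and turn on Trp63 and AP-2 factors as they take the epidermal course. E-cadherin, EpCAM, claudins and simple keratins are also made by gut endoderm and by other epithelia of the embryo, whereas somites and neural tube use mainly N-cadherin (Cdh2). Dll3, a divergent Notch ligand, acts in the paraxial mesoderm, where its loss disturbs the segmentation of somites.

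The comparison of genotypes asked whether epithelial transcripts differ in this tissue when Dll3 is disrupted. Among the 10 genes, 9 had a higher mean log2 ratio in the mutant pools and 1, Krt19, a lower one, where 51.9% of all genes were higher. The median log2 difference of the 10 genes was 0.14, beside 0.003 over all genes, and 6 of them had a difference of 0.1 or more, as did 11.9% of all genes. No member passed an adjusted p of 0.05 in limma (Benjamini-Hochberg over all probe sets, lowest adjusted p = 0.99996), and 0 had an unadjusted p under 0.05, against 2.63% of all probe sets. The share of all probe sets past the adjusted threshold was 0%. For all 16 member probe sets the 3 mutant and the 3 wild-type pools overlapped, while 7.46% of all probe sets had groups that did not (4.07% with the mutant pools higher). In pooled bulk tissue, a different number of epithelial cells and a different amount of RNA in each such cell cannot be told apart.

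**Figure D1:**
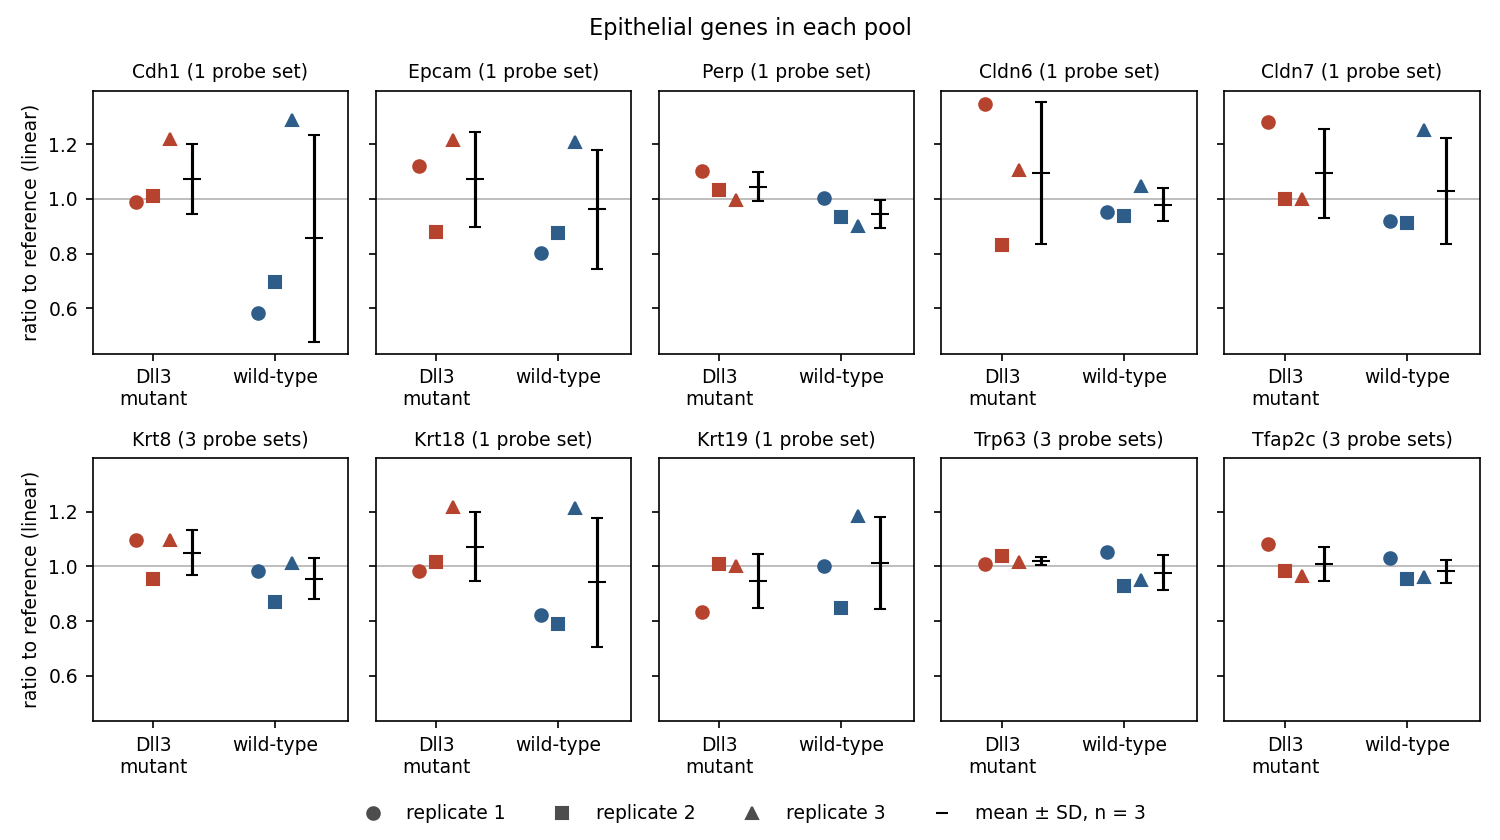
Each panel shows 1 gene, with the ratio to its reference on a linear axis for the 3 Dll3 mutant pools (left) and the 3 wild-type pools (right), marker shape for the replicate number, and bars for mean ± SD. A gene with 3 probe sets is drawn at their mean on the log2 scale. For Cdh1, Epcam and Krt18, mutant replicate 3 lies high, with wild-type replicate 3 beside it and wild-type replicates 1 and 2 low (1.22 in mutant replicate 3 against 1.29, 0.585 and 0.696 in wild-type replicates 3, 1 and 2 for Cdh1).

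Cdh1, which encodes the main cadherin of adherens junctions in epithelia, had the largest difference of the 16 probe sets. Its ratios were 0.988, 1.01 and 1.22 in mutant pools 1, 2 and 3, against 0.585, 0.696 and 1.29 in wild-type pools 1, 2 and 3. Wild-type pools 1 and 2 were thus the lowest of all 6 and wild-type pool 3 the highest, so that the groups overlapped. The mean ratio was 1.07 ± 0.126 in mutant and 0.856 ± 0.378 in wild-type pools (SD, n = 3 each). The log2 difference was 0.41 (SE 0.23, 95% interval -0.10 to 0.91). Without wild-type pool 3 it was 0.74 (SE 0.12, limma adjusted p = 0.712), and without wild-type pool 1 it was 0.17.

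Epcam, a homophilic adhesion molecule of epithelial cells, had ratios of 1.12, 0.88 and 1.22 in mutant pools and 0.801, 0.877 and 1.21 in wild-type pools. Mutant pool 2 lay beside wild-type pool 2, and wild-type pool 3 beside mutant pool 3. The log2 difference was 0.17 (SE 0.159, 95% interval -0.18 to 0.52), and leaving out 1 pool at a time gave 0.05 (without wild-type pool 1) to 0.34 (without wild-type pool 3). Perp, a tetraspan protein of desmosomes that is a p63 target in mouse skin, was at 1.10, 1.03 and 0.998 in mutant pools and at 1.002, 0.933 and 0.903 in wild-type pools. The groups overlapped through 1 pair of pools alone, wild-type pool 1 lying just above mutant pool 3. Its log2 difference was 0.14 (SE 0.088, 95% interval -0.05 to 0.34), and it kept its sign without any 1 pool (0.10 to 0.19).

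The claudins form the strands of tight junctions. Cldn6, an embryonic claudin, had ratios of 1.35, 0.83 and 1.10 in mutant pools, against 0.953, 0.937 and 1.05 in wild-type pools. The mutant pools held both the highest and the lowest value, giving a log2 difference of 0.13 (SE 0.149, 95% interval -0.19 to 0.46). Cldn7 had ratios of 1.28, 0.999 and 1.001 in mutant pools and 0.921, 0.914 and 1.25 in wild-type pools. Here 1 pool of each genotype, mutant pool 1 and wild-type pool 3, stood above the other 4. The Cldn7 log2 difference was 0.09 (SE 0.14, 95% interval -0.22 to 0.40). The positive sign of both claudins rested on mutant pool 1: without it Cldn6 was at -0.03 and Cldn7 at -0.03.

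Krt8 and Krt18 encode the pair of keratins that assemble into the filaments of simple epithelia. Krt18 had ratios of 0.985, 1.01 and 1.22 in mutant pools, against 0.823, 0.788 and 1.21 in wild-type pools. The order of its pools was close to that of Cdh1, with wild-type pools 1 and 2 lowest. Its log2 difference was 0.21 (SE 0.155, 95% interval -0.13 to 0.55), and it was 0.41 without wild-type pool 3 and 0.09 without wild-type pool 2.

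Krt8 was read by 3 probe sets, which gave log2 differences of 0.10, 0.17 and 0.15 (SE 0.109, 0.0993 and 0.101). The largest of them came from ratios of 1.15, 0.991 and 1.04 in mutant pools and 0.977, 0.853 and 1.01 in wild-type pools. The suffix x of this probe set and of the one at 0.15 marks probes that can bind other transcripts as well, and the remaining one (0.10) carries no such mark. Without mutant pool 3 this unmarked probe set was at 0.0004, and without mutant pool 2 it was at 0.20. The one at 0.15 was 0.06 without wild-type pool 2, and the one at 0.17 was between 0.09 and 0.21 with single pools left out. All 3 had their highest mutant value in pool 1 or 3 and their lowest wild-type value in pool 2. Krt19, a keratin of simple epithelia that lacks most of the usual tail domain, was the member with a lower mean in mutant pools. Its ratios were 0.834, 1.01 and 1 in mutant pools and 1, 0.849 and 1.19 in wild-type pools, a log2 difference of -0.09 (SE 0.128, 95% interval -0.37 to 0.20). That sign turned without mutant pool 1 (0.004) or without wild-type pool 3 (0.04).

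The start regions of the members were searched for letters that are known in epithelial promoters, because Snail and Zeb repressors bind the E-box CAGGTG in genes such as Cdh1. RefSeq promoter windows (GRCm38.p6, 250 bases before and 50 from the start of transcription) were found for 5 of the 10 genes, with 2 windows for Cldn7. Cdh1 itself, Perp, Krt19, Trp63 and Tfap2c had no window and were not searched. CAGGTG, read on both strands and so also as CACCTG, was in 5 of these 6 windows, covering all 5 genes, and in 20.2% of the 32851 windows of that table. Of the other motifs, GGGCGG was in 3 of the 6 windows (35.7% of all), GCCNNNGGC in 1 (16.6%) and AACCNGTT in 0 (2.09%), each read on both strands. None of the matches overlapped a match of another of the 4 motifs.

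The windows of Epcam and Krt18 are shown because these genes varied between pools as Cdh1 did, and that of Krt8 because its product pairs with that of Krt18. Capitals mark the CAGGTG or CACCTG letters, and each window reads 5′ to 3′ on the strand of its gene. Epcam lies at chr17:87635729-87636028 (plus strand), Krt18 at chr15:102027966-102028265 (plus strand) and Krt8 at chr15:102004293-102004592 (minus strand), all in GRCm38.p6.
Epcam: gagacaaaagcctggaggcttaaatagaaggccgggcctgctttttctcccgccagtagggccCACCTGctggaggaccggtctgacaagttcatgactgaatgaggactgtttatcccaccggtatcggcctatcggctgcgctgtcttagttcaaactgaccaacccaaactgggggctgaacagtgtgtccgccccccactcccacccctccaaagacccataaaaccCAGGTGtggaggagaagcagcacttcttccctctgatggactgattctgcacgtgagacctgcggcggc
Krt18: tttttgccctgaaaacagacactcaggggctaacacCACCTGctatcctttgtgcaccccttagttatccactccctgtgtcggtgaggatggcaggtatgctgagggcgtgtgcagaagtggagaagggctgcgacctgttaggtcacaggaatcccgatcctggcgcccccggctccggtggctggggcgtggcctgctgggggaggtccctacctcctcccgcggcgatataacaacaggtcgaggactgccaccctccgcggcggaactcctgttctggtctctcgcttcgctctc
Krt8: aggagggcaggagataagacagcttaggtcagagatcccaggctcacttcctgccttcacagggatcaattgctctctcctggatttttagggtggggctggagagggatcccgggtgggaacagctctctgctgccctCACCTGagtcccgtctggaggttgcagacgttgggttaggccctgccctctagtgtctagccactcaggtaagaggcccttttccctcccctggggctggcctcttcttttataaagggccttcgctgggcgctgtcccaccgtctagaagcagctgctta
In Epcam the matches began at -187 and -19 relative to the start (the first transcribed base is +1), in Krt18 at -214 and in Krt8 at -111. Cldn6 held them at -93 and 41 and the second window of Cldn7 at -97 and -57. A match of letters is a description and shows no binding. Over the 6 pools the 5 genes that hold it had r with Cdh1 of 0.95 (Krt18), 0.87 (Epcam), 0.66 (Cldn7), 0.57 (Krt8) and 0.33 (Cldn6). Krt19, which had no window, was at 0.46. Every gene with a window held the motif, so a tie between the motif and r with Cdh1 could not be tested.

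Trp63 encodes p63, the transcription factor on which stratified epithelia depend. Its 3 probe sets were at log2 differences of 0.08, 0.07 and 0.04 (SE 0.0951, 0.0821 and 0.102). The second of them had ratios of 1.04, 0.992 and 1.03 in mutant pools and 1.01, 0.968 and 0.949 in wild-type pools, a span of less than 0.1 over all 6. The probe set at 0.04 was highest in wild-type pool 1, at 1.13, with the other 5 pools between 0.9 and 1.04. Tfap2c encodes AP-2 gamma, a factor of the early surface ectoderm and of trophoblast. Its probe sets disagreed in sign, at 0.07, 0.07 and -0.03 (SE 0.0963, 0.0966 and 0.105), and the mean over them was 0.04. In the probe set at -0.03 the ratios were 1.09, 0.983 and 0.867 in mutant pools and 1.06, 1.02 and 0.917 in wild-type pools.

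**Figure D2:**
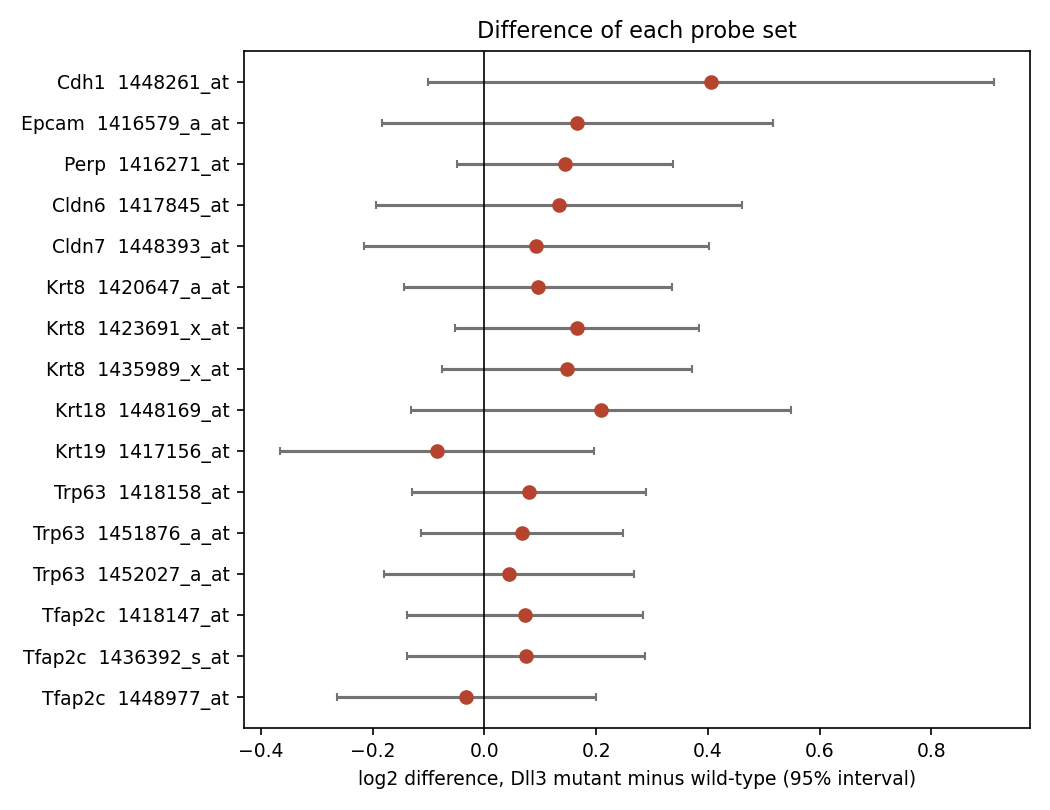
Log2 difference (Dll3 mutant minus wild-type) of each of the 16 probe sets on the horizontal axis, with its 95% interval from limma, ordered by the role of the gene. Every interval contains 0, and 14 points lie to the right of it, where 51.5% of all probe sets did.

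Replicate pools of the same genotype differed far more for some of these genes than for others. The within-genotype SD of Cdh1 on the log2 scale was 0.439, higher than in 99.9% of all probe sets, whose median was 0.119. Epcam stood at percentile 97.7, Krt18 at 97.1, Cldn6 at 96.2 and Cldn7 at 94.0. These 5 probe sets were the ones above percentile 90, and Krt19 was at percentile 89.0. Perp was at percentile 18.4, the Krt8 probe sets at 51.2 to 70.4, those of Trp63 at 2.89 to 56.7 and those of Tfap2c at 43.3 to 64.0. Whether a high SD came with a dim signal could not be read from ratios.

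**Figure D3:**
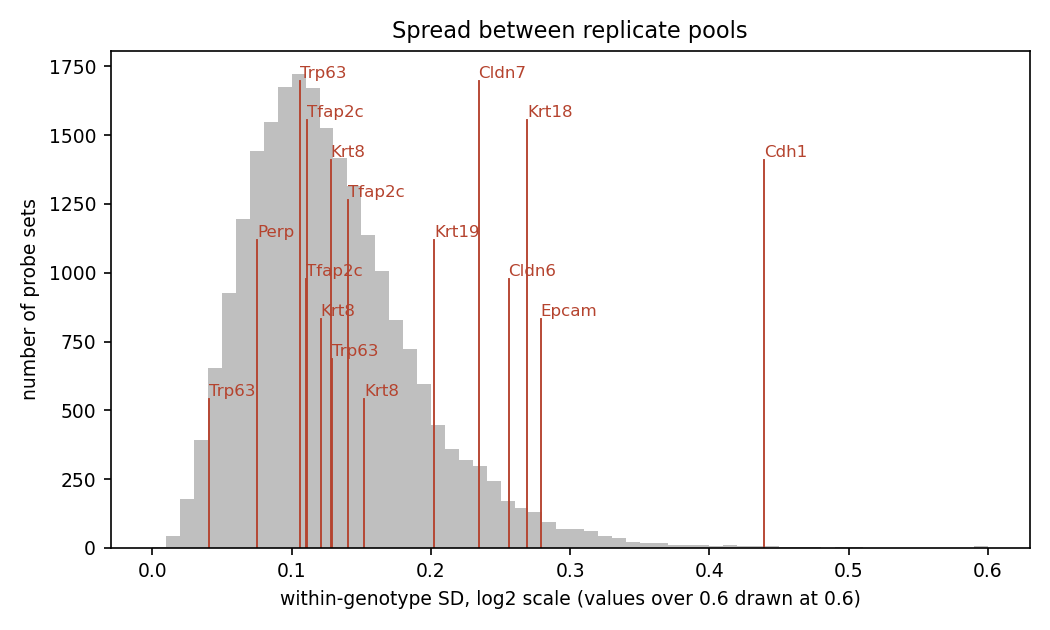
Grey bars count all 22626 probe sets by the SD of their log2 ratios within genotype (horizontal axis, pooled over the 3 mutant and 3 wild-type pools), and red lines mark the 16 member probe sets. Cdh1 lies at 0.439, to the right of nearly all probe sets, and the lines of Perp, Trp63, Tfap2c and Krt8 stand within the bulk.

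The pools of highest and lowest value were not the same for all 10 genes, and whether the genes varied as 1 group was not tested. Wild-type pool 2 was below the reference for all 10 genes and held the lowest value for 5 of them, where 58.3% of all genes were below and 18.5% were lowest in that pool. Mutant pool 1 held the highest value for 5 (Perp, Cldn6, Cldn7, Krt8 and Tfap2c), where 18.1% of all genes were highest in it. The mean log2 ratio of the 10 genes was 0.11, -0.04 and 0.11 in mutant pools and -0.15, -0.20 and 0.13 in wild-type pools. Wild-type pool 3 was thus the highest of all 6 by this mean, and the other 2 wild-type pools were the lowest. It was also highest on the first principal component of all probe sets (42.0% of the variance), with scores of -15.2, 5.39 and 11.4 in mutant pools and -11.5, -8.30 and 18.2 in wild-type pools.

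**Figure D4:**
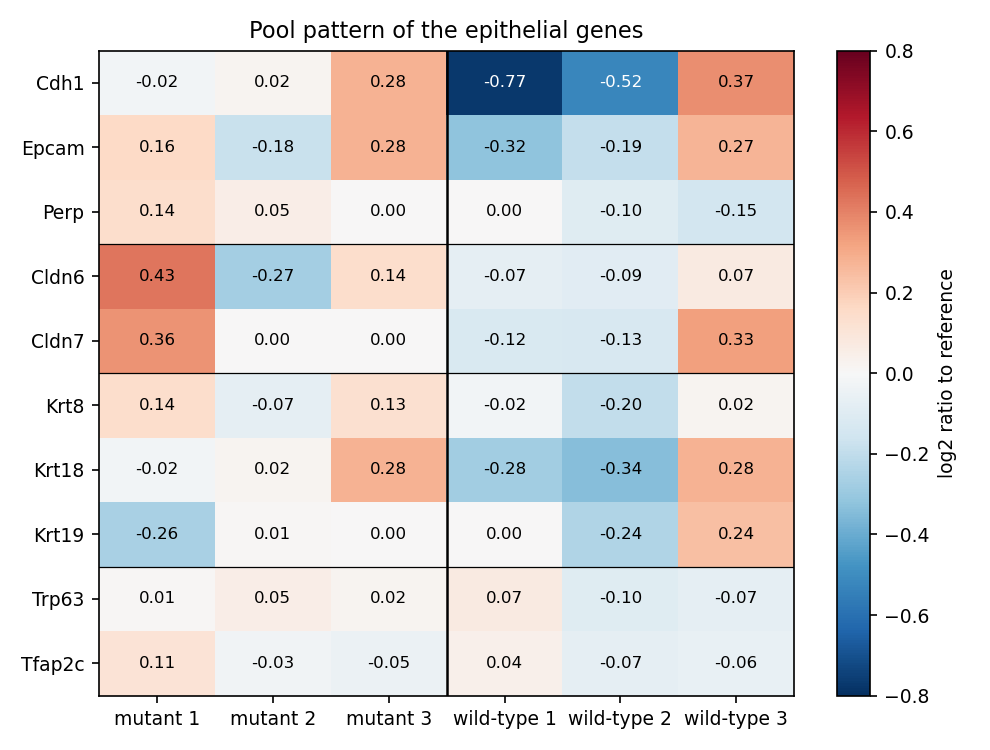
Log2 ratio of each gene (rows, grouped as adhesion, claudin, keratin and transcription factor genes) in each pool (columns, mutant left and wild-type right of the line), printed in each cell and coloured from blue (low) to red (high). The Cdh1, Epcam and Krt18 rows share high values in mutant pool 3 and wild-type pool 3 and low ones in wild-type pools 1 and 2, and the Perp, Trp63 and Tfap2c rows stay within 0.15 of 0.

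Of the 45 pairs among the 10 genes, 32 had a positive Pearson correlation over the 6 pools and 13 a negative one. The same share over pairs of all genes was not computed. Cdh1 and Krt18 had r = 0.95 (exact permutation p = 0.0139, two-sided, adjusted p = 0.344 over the 45 pairs) and Spearman's rho = 0.89 (exact permutation p = 0.0333, adjusted p = 0.25). Without the 2 pools farthest from the Cdh1 median, wild-type 1 and 2, their r was 0.98 over the 4 pools left. Cdh1 and Epcam had r = 0.87 (exact permutation p = 0.0153, adjusted p = 0.344) and rho = 0.89 (exact permutation p = 0.0333, adjusted p = 0.25), and r was 0.69 without the same pools. In deviations from the genotype means these r were 0.94 and 0.86. No pair passed the adjusted threshold, and all values of a pool share its dissection and its array. Cdh1 had negative r with Perp (-0.05), Trp63 (-0.15) and Tfap2c (-0.26).

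Ranked by Pearson's r with Cdh1 over the 6 pools, Krt18 came 49th and Epcam 331st of 12392 genes. The 10 genes of highest r with Cdh1 were Mtdh, Cct2, Vps26c, Mterf4, Ltv1, Usp33, Rhebl1, Ctps, Taf1b and Rab5if (r from 0.98 to 0.99), none of them in the epithelial lists used here. Against the mean of the 10 members the first were Fut4, Caml, Mpp6, Neil3, Mtss1, Tardbp, Sod2, Prkcd, Emb and Slc25a15 (r from 0.97 to 0.99). The 67 other epithelial genes were spread over both ends of that ranking of 12383 genes, 31 with a positive r and 36 with a negative one. The serine protease gene Tmprss2 was their first, at rank 51 (r = 0.93), and the last were Elf3 (r = -0.86), Krt5 (r = -0.88) and Lama3, at rank 12285 (r = -0.91). With 6 pools and this many genes, ranks describe these pools only.

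The Snail and Zeb genes themselves were measured. Snai1 was at a log2 difference of -0.13 (SE 0.0866), with ratios of 0.849, 0.915 and 1.03 in mutant pools and 1.05, 0.989 and 1.01 in wild-type pools. Snai2 was at 0.01, Zeb1 at -0.02 and Zeb2 at 0.04 (SE 0.0933, 0.0824 and 0.14), and none of the 4 passed the test. In the mesenchymal list that holds them, 8 of 14 genes were higher in mutant pools, and their median log2 difference was 0.008. Second to Snai1 by p in that list was Pdgfra, a receptor gene of mesenchyme, at 0.08 (SE 0.0779). Among other cadherins, Cdh2 was at 0.02 (SE 0.0775) and Cdh3, the P-cadherin of basal epithelium, at 0.02 (SE 0.0743), while Cdh1 was at 0.41.

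Of 74 other genes of epithelia, grouped by role, 67 were measured. In the mutant pools 39 were higher and 28 lower, close to the 51.9% of all genes that were higher, and the median log2 difference was 0.01. None passed the adjusted threshold in either direction in limma, 1 had an unadjusted p under 0.05 (2.67% of all genes), and 4 had groups that did not overlap (7.46% of all genes), Cd9 with the mutant pools higher and Bspry, Klf4 and Cldn1 with the mutant pools lower. The Klf4 groups were apart only in the mean of its 2 probe sets, and in each probe set alone they overlapped. For Cldn1 the log2 difference was only -0.05 (SE 0.0682), with ratios between 0.7765 and 0.8119 in all pools. Junction genes were at 11 higher and 10 lower of 21, other keratins at 2 and 4 of 6, and regulators at 11 and 7 of 18. Surface proteases and transport genes were at 9 higher and 6 lower of 15, and basement membrane genes at 6 and 1 of 7.

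The other epithelial gene of smallest p was Cd9, a tetraspanin that is also found outside epithelia. Its ratios were 1.04, 1.04 and 1.03 in mutant pools, all above the 0.922, 0.879 and 0.967 of wild-type pools. Its log2 difference was 0.17 (SE 0.0726, limma unadjusted p = 0.0372, adjusted p = 0.99973). Next in that direction came the protease inhibitor genes Spint1 (0.16, SE 0.0831) and Spint2 (0.12, SE 0.0843), the tight junction genes Ocln (0.13, SE 0.0882) and Cldn4 (0.11, SE 0.0744), and the ligand gene Wnt7b (0.18, SE 0.129). The 2 probe sets of Wnt7b differed, at 0.29 (SE 0.126) and 0.07 (SE 0.139) in the probe set fit.

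Lower in mutant pools by the smallest p were Bspry (-0.17, SE 0.0807), Grhl1, a grainyhead-like factor of epidermis (-0.14, SE 0.09), the laminin gene Lama3 (-0.18, SE 0.128) and Krt5, the basal keratin (-0.11, SE 0.0794). Klf4, a barrier factor, was at -0.09 (SE 0.0733) and Krt15 at -0.10 (SE 0.079). Spint1 and Spint2 were highest in mutant pools 1 and 3. For Spint2 this held for the mean of its 2 probe sets. In the one of suffix x, wild-type pool 3 (1.13) lay above mutant pool 1 (1.01). Spint1 had ratios of 1.08, 0.992 and 1.17 in mutant pools and 0.932, 0.954 and 1.01 in wild-type pools. Tfap2a, the AP-2 factor of surface ectoderm and neural crest, was at 0.06 (SE 0.0884) and Grhl2 at -0.02 (SE 0.0818).

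**Figure D5:**
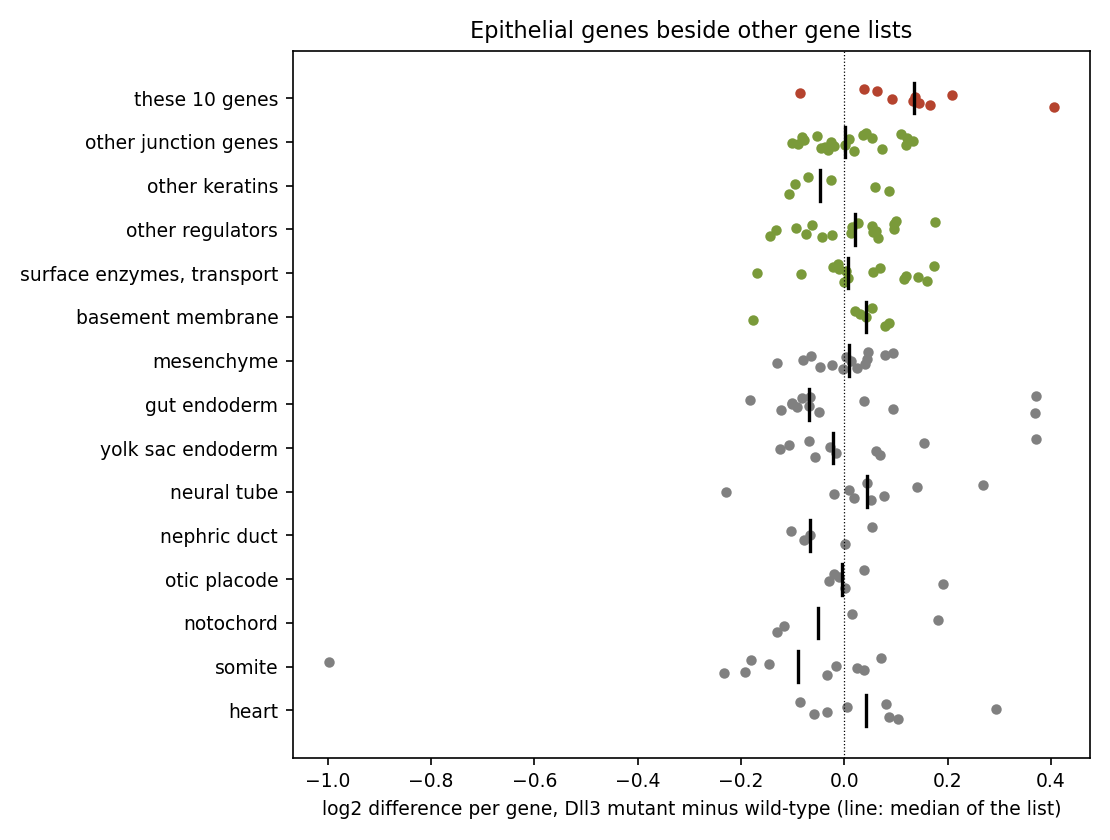
Log2 difference (Dll3 mutant minus wild-type) of each measured gene on the horizontal axis, by list, with a black line at the list's median. The 10 genes lie between -0.09 and 0.41 with a median of 0.14, and the medians of the other epithelial lists (green) lie between -0.05 and 0.04.

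Other epithelia that the dissection could have left in the tissue were followed through their markers. In the gut endoderm list, 4 of 13 measured genes were higher in mutant pools (median -0.07), and the mean log2 ratio was 0.02, -0.09 and 0.03 in mutant pools and -0.005, -0.07 and 0.04 in wild-type pools. Of its members Foxa1, a forkhead factor of endoderm and floor plate, was at 0.37 (SE 0.19, adjusted p = 0.99973 in limma). Its ratios of 1.08, 0.92 and 1.51 in mutant pools and 0.765, 0.787 and 1.15 in wild-type pools were highest in mutant pool 3 and lowest in wild-type pools 1 and 2. Foxa1 was among the 2 genes of smallest p in this list, and 9 of the 13 genes were lower in mutant pools. Rbp4, the retinol carrier made by visceral endoderm, had ratios of 1.27, 1.01 and 1.18 in mutant pools, all above the 0.944, 0.745 and 0.994 of wild-type pools. Its log2 difference was 0.37 (SE 0.122, limma unadjusted p = 0.0121, adjusted p = 0.99973). The part of endoderm cells in the Epcam and Cdh1 values was not tested.

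In the yolk sac endoderm list 4 of 10 genes were higher (median -0.02), and the list mean was 0.14, -0.07 and 0.002 in mutant pools and -0.01, -0.07 and 0.08 in wild-type pools. Rbp4 was also in this list and came first by p. Its second gene by p, Cubn, was at 0.15 (SE 0.0885), from 2 probe sets at 0.29 (SE 0.116) and 0.02 (SE 0.0865). Nephric duct markers were higher for 2 of 5 (median -0.07, with Lhx1 at -0.08 and Ret at -0.07), and otic placode markers for 3 of 6 (median -0.005). Among the last, Dlx5 had a ratio of 1.68 in mutant pool 1, against 0.781 to 1.02 in the other 5 pools. In mutant pool 1 the other otic markers were at 1.18 (Pax8), 1.053 (Oc90), 1.0085 (Sox10), 0.924 (Eya1) and 0.92 (Gbx2). Sox10, second by p in that list, was at 0.04.

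Neural tube markers were higher for 7 of 9 (median 0.04), with Fabp7 at 0.27 (SE 0.158) and Olig2 at -0.23 (SE 0.173). Somite markers were higher for 3 of 10 (median -0.09), with Uncx at -0.998 (SE 0.124) and Meox2 at -0.23 (SE 0.132). Notochord markers were at 2 higher and 2 lower, with Foxj1 at 0.18 and Chrd at -0.12, and heart markers at 5 of 8 higher, with Tnnt2 at 0.29 and Myh6 at 0.10. None of the markers in these 9 lists passed the adjusted threshold in limma.

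The sex mix of the pools moved with genotype. A score of Xist minus the mean of Eif2s3y, Kdm5d and Uty (log2) was 0.04, 0.81 and 0.73 in mutant pools and -0.08, -1.48 and -1.73 in wild-type pools. With this score in the model, the log2 difference was 1.04 for Cdh1 (SE 0.347), 0.59 for Epcam (SE 0.245) and 0.43 for Krt18 (SE 0.274), each with an adjusted p of 0.9998 in limma. The median of the 10 genes was then 0.28. Dll3, read by a single probe set, was at -0.02 (SE 0.0733), with ratios of 0.996, 1.01 and 0.941 in mutant pools and 0.96, 1.004 and 1.03 in wild-type pools. The sources used here do not say where its probes lie relative to the mutated site.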

How the data were processed

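RNA of 3 Dll3 mutant and 3 wild-type pools was hybridised to 1 array each. The authors deposited 1 table of 22690 probe sets, whose values are linear and read as a ratio against each probe set's own reference: 93.4% of rows have a median of 1 over the 6 pools (within 0.0015). The submitters' processing notes list RMA and MAS5 with neither version nor role. How arrays were scaled is not given here.

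The 64 control probe sets were left out. Log2 ratios of the other 22626 were fitted with limma 3.58.1 in R 4.3.3 (lmFit, eBayes, genotype only, two-sided, no pseudocount), with Benjamini-Hochberg adjustment over all of them. SEs, intervals and p-values rest on the spread between pools after eBayes drew each variance toward that of all probe sets. They do not measure a probe set's own spread alone. The SE is thus smaller than its own spread would give for a variable one such as Cdh1. For an even gene such as Cldn1, in the gene fit, it is larger. An exact test of 3 against 3 pools cannot go below p = 0.1. A gene's value was the mean of its probe sets' log2 ratios, and the 12393 genes so obtained were fitted in the same way. Single-gene differences and SEs of members come from the probe set fit and those of other genes from the gene fit, unless stated. By the platform annotation, 20380 probe sets had 1 symbol and could be named, 691 had several symbols and 1555 had none. Of these, 20351 matched the gene table of GRCm38.p6 by identifier. Simulated data tested the script.

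Members and lists were chosen with earlier results of these data known, so lists are described by counts and medians beside those of all genes. Named besides the members are the 6 other epithelial genes per direction and the 2 genes per marker list of smallest p, the 10 genes most like Cdh1 or the members' mean, Dll3 and sex-linked genes. Tmprss2, Elf3, Cldn1, Tfap2a, Grhl2, Cdh2, Cdh3, Snai2, Zeb1 and Zeb2 were named outside that rule, after their values were seen. The main fit did not pair the pools by replicate number, and the check of such a pairing stands with the alternatives. Figures were drawn with matplotlib 3.10.9.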

Additional observations from a re-analysis of the deposited data

How the results depend on the processing

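Results were recomputed with the replicate number as a block, a variance trend, array weights, quantile normalization, median centring, probe sets with a median below 1 removed, each pool left out, both pools numbered 3 left out, the sex score, 0.1 added before log2, the most variable probe set for a gene, and without probe sets of suffix _x_at or _s_at. No member passed the adjusted threshold under any of these. The main fit did not pair the pools by replicate number. Deviations of same-numbered pools correlated over all probe sets at 0.37, -0.02 and 0.37 (replicates 1, 2 and 3). Of the 6 pools, 4 correlated best with their own number. Pools numbered 1 and 3 were thus alike across genotypes in part, and those numbered 2 were not. The count of probe sets past the threshold was 0, and it became 1 with the replicate block (Uncx) and 1 with array weights (Uncx), and 0 to 1 with pools left out (Xist, without wild-type pool 1). At unadjusted p under 0.05 the count of 595 became 1072 with the replicate block and 1770 with array weights. The sex score gave 267, and leaving out pools gave 319 to 1229 (1013 without mutant pool 1, 319 without wild-type pool 2, 1229 without wild-type pool 3).

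Over all alternatives 7 to 10 of the 10 genes and 31 to 43 of the other epithelial genes were higher in mutant pools. The median of the 10 genes was 0.0828 to 0.182 with pools left out and 0.283 with the sex score. Signs turned for Krt19 with array weights (0.0385, and 0.0488 in the gene fit). With the sex score they turned for the Trp63 probe sets at 0.08 and 0.04 (-0.0244 and -0.244) and for the Trp63 gene mean (-0.0823). Without both pools numbered 3 they turned for the Trp63 probe set at 0.04 (-0.0417) and for 1 at 0.07 of Tfap2c (-0.000798), and the most variable probe set of Tfap2c gave -0.0322. With single pools left out, ranges that crossed 0 were -0.0300 to 0.319 for Cldn6, -0.0256 to 0.243 for Cldn7, -0.205 to 0.0356 for Krt19, -0.0209 to 0.145 for the Trp63 probe set at 0.04, -0.112 to 0.0531 for the Tfap2c probe set at -0.03 and -0.0126 to 0.0741 for the Tfap2c gene mean. The cause of these changes was not tested. Fits without some pools also rest on fewer of them. Ratios keep no signal over background, so what dimness limits could not be measured.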
